A study of Mus musculus with 38 samples.

Results

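Glutamate receptors and the proteins that hold them at the postsynaptic side of the synapse were compared between *Arc*-active and *Arc*-inactive granule cells of the mouse dentate gyrus (DG). The group holds 47 of the 23420 genes counted, picked out by their symbols. It has 4 subunits of AMPA receptors (*Gria1* to *Gria4*) and 5 of kainate receptors (*Grik1* to *Grik5*). There are 7 subunits of NMDA receptors (*Grin1*, *Grin2a* to *Grin2d*, *Grin3a*, *Grin3b*), 8 metabotropic receptors (*Grm* genes) and 3 neuronal pentraxins (*Nptx1*, *Nptx2*, *Nptxr*). A further 5 are trafficking proteins, of AMPA receptors (*Nsf*, *Pick1*, *Grip1*, *Grip2*) or metabotropic receptors (*Grasp*). The rest are 5 membrane-associated guanylate kinases (*Dlg1* to *Dlg5*), 4 SAPAP proteins (*Dlgap1* to *Dlgap4*), 3 Shank proteins (*Shank1* to *Shank3*) and 3 Homer proteins (*Homer1* to *Homer3*). In 12 mice 24 h after fear conditioning, dVenus+ cells held more *Nptx2* RNA and less *Nptx1* and *Grm2* RNA than dVenus- cells of the same mice, and no other member passed both thresholds of the test.

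Glutamate released by a presynaptic axon opens AMPA receptors, which carry most of the fast current, and NMDA receptors, whose calcium influx can start changes in synaptic strength. Kainate receptors add slower currents and act on both sides of the synapse, and metabotropic receptors signal through G proteins. Guanylate kinases such as PSD-95, together with SAPAP, Shank and Homer proteins, link the receptors to one another and to the cytoskeleton. Neuronal pentraxins gather AMPA receptors from outside the cell. The products of *Nptx1* and *Nptx2* are secreted, and that of *Nptxr* is bound to the membrane. *Nptx2* is known as a gene whose transcription follows neuronal activity.

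All mice were C57BL/6J males of 8 to 12 weeks that carried the *Arc*::dVenus transgene, whose *Arc* promoter sequence makes a short-lived yellow fluorescent protein, so that dVenus+ cells are those with recent *Arc* promoter activity. There were 12 fear conditioned mice (FC), which explored a chamber and heard tones that each ended with a foot shock. Another 4 mice went through the same protocol, tones included, without a shock (NS), and 3 mice stayed in the home cage (HC). From each mouse 10 dVenus+ and 10 dVenus- granule cells were drawn into patch pipettes together with their nuclei and pooled by cell type, which gave 38 libraries and 19 pairs. FC and NS cells were collected 24 h after training, and HC mice had no training. FC libraries came from 3 sequencing projects with 2, 4 and 6 mice, and all NS and HC libraries from another, so that a difference between FC and the other mice cannot be told apart from a difference between projects.

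Between 1352288 and 18394761 reads per library were counted on genes (median 8013005). The gene behind the reporter, *Arc*, was higher in dVenus+ cells of 19 of 19 mice. The RNA of granule cell markers (*Prox1*, *Calb1*, *Dsp*, *Dock10*, *C1ql2*, *Plk5*, *Stxbp6*) was present in all groups, with a summed level of 391 CPM (median, range 74.8 to 1260) in dVenus+ and 1209 CPM (735 to 2667) in dVenus- FC libraries, and it was higher in dVenus+ cells in 0 of 12 FC, 0 of 4 NS and 0 of 3 HC mice. Normalized CPM (here CPM) are counts relative to each library's total on genes, with libraries scaled by TMM, a method that centres the bulk of genes. The 9 microglia markers moved the other way, with 179 CPM (32.7 to 1714) in dVenus+ and 26.4 CPM (1.12 to 499) in dVenus- FC libraries, and were higher in dVenus+ cells of 12 of 12 FC, 4 of 4 NS and 2 of 3 HC mice; *Cx3cr1*, *Csf1r* and the other 7 each had counts in both cell types of FC mice. The 6 nuclear-retained RNAs, among them *Malat1* and *Meg3*, came to 34460 CPM (19397 to 78437) in dVenus+ and 15956 CPM (4319 to 44001) in dVenus- FC libraries, higher in dVenus+ cells of 12 of 12, 4 of 4 and 3 of 3 mice. The part of these shifts in the results below was not tested. Markers of other cell types are listed with the processing of the data. Those of oligodendrocytes had a higher median summed level than the granule cell markers in dVenus+ FC libraries. In libraries of pooled cells, fewer cells that hold an RNA and less of it in each cell cannot be told apart.

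The members spanned a wide range of levels. In dVenus- cells of FC mice, 3 genes stood at the top when counts were divided by exon length: *Nptx1* with 142 ± 67.2, *Gria1* with 136 ± 37.8 and *Nsf* with 132 ± 57.2 CPM per kb (mean ± SD, n = 12), and these did not differ beyond their spread. *Gria2* followed with 70.9 ± 25.7 CPM per kb. The next levels were those of *Grm5* (21.8 ± 9.46), *Dlgap1* (20.4 ± 4.46) and *Grm2* (20.0 ± 10.9 CPM per kb), which again lay within each other's spread. This order depends on the exon lengths used. Before division by length the means were 1102 CPM for *Gria2*, 1099 CPM for *Nsf*, 824 CPM for *Gria1* and 741 CPM for *Nptx1*. Of the 47 members, 10 had at least 10 counts in all 38 libraries and 25 in at least 30. At the other end 10 members had no count in 19 or more libraries, and *Grm4*, a presynaptic receptor, had 1 library with any count.

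The make-up of each receptor family per exon length was a further description. AMPA receptor RNA consisted mainly of *Gria1* and *Gria2* in both cell types. In FC mice *Gria1* made up 60.5 ± 4.93% of it in dVenus- and 59.1 ± 12.3% in dVenus+ cells, and *Gria2*, the subunit that keeps the channel from passing calcium, 30.8 ± 4.45% and 29.4 ± 11.7%. The share of *Gria2* was higher in dVenus+ cells in 6 of 12 mice and lower in 6. That *Gria1* took the larger share rests on the division by exon length. Before it, *Gria2* had the higher mean in dVenus- (1102 against 824 CPM) and in dVenus+ cells (615 against 511 CPM) of FC mice. Among metabotropic receptors the make-up differed more. *Grm2* took 30.9 ± 12.3% of the family in dVenus- and 11.3 ± 15.7% in dVenus+ cells, with a lower share in dVenus+ cells of 11 of 12 mice. *Grm7* took 17.8 ± 10.3% and 51.9 ± 29.7%, with a higher share in dVenus+ cells of 10 of 12 mice. Of the pentraxin RNA *Nptx2* made up 1.64 ± 3.26% in dVenus- and 34.9 ± 20.3% in dVenus+ cells. Its share was higher in dVenus+ than in dVenus- cells of 12 of 12 mice. A share also depends on the other genes of the family. In mouse 14 *Nptx2* itself was lower in dVenus+ cells (4.17 against 45.6 CPM), as was *Nptx1* (65.9 against 773 CPM).

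**Figure D1:**
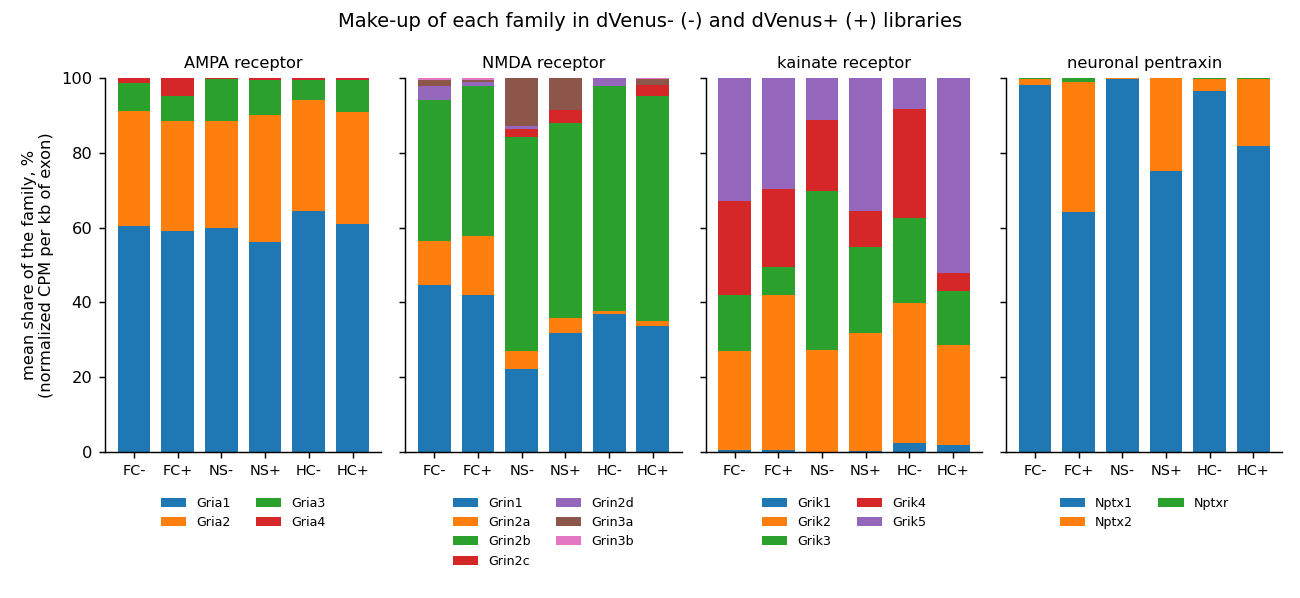
Stacked bars give the mean share of each gene (y axis, %) in the RNA of its family (AMPA, NMDA and kainate receptors and pentraxins), from normalized CPM per kb of exon, for dVenus- (-) and dVenus+ (+) libraries of 12 FC, 4 NS and 3 HC mice. *Gria1* and *Gria2* fill most of the AMPA bars in every group, and *Nptx2* fills 34.9% of the pentraxin bar in FC dVenus+ against 1.64% in FC dVenus- cells.

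In FC mice 35 of the 47 members had enough counts to be tested, with a minimum of 10 counts in 12 or more of the 24 FC libraries. *Grik1*, *Grin2c*, *Grin2d*, *Grin3a*, *Grin3b*, *Grip2*, *Grm3*, *Grm4*, *Grm6*, *Grm8*, *Homer3* and *Nptxr* did not. The test was edgeR's quasi-likelihood test with the mouse as block, and a gene was called at a Benjamini-Hochberg adjusted p under 0.05 and an absolute log2 fold change over 1. Of all 9709 genes tested 4.35% were called (1.5% higher and 2.84% lower in dVenus+ cells), and of the 35 members 3 were called, 1 higher and 2 lower. At any fold change 4.37% of all genes and 4 members passed the adjusted p. The values of the cell types did not overlap for 0 members and 0.124% of all genes. At an unadjusted p under 0.05 stood 16 members, 6 higher and 10 lower, where the share over all genes was 17.8% (6.49% higher and 11.3% lower). The median log2 fold change of the 35 members was -0.46 and that of all genes -0.11, and 22 members against 54.1% of all genes had a fold change below 0. A filter on counts favors genes that are high in either cell type, so these counts describe the members that passed it and not all 47. The members were also chosen with earlier results of these data known, so their numbers beside those of all genes are a description. Without TMM, with libraries scaled by their totals, the median of all genes moved to -0.45 and the split of all calls from 146 higher and 276 lower to 55 and 352.

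**Figure D2:**
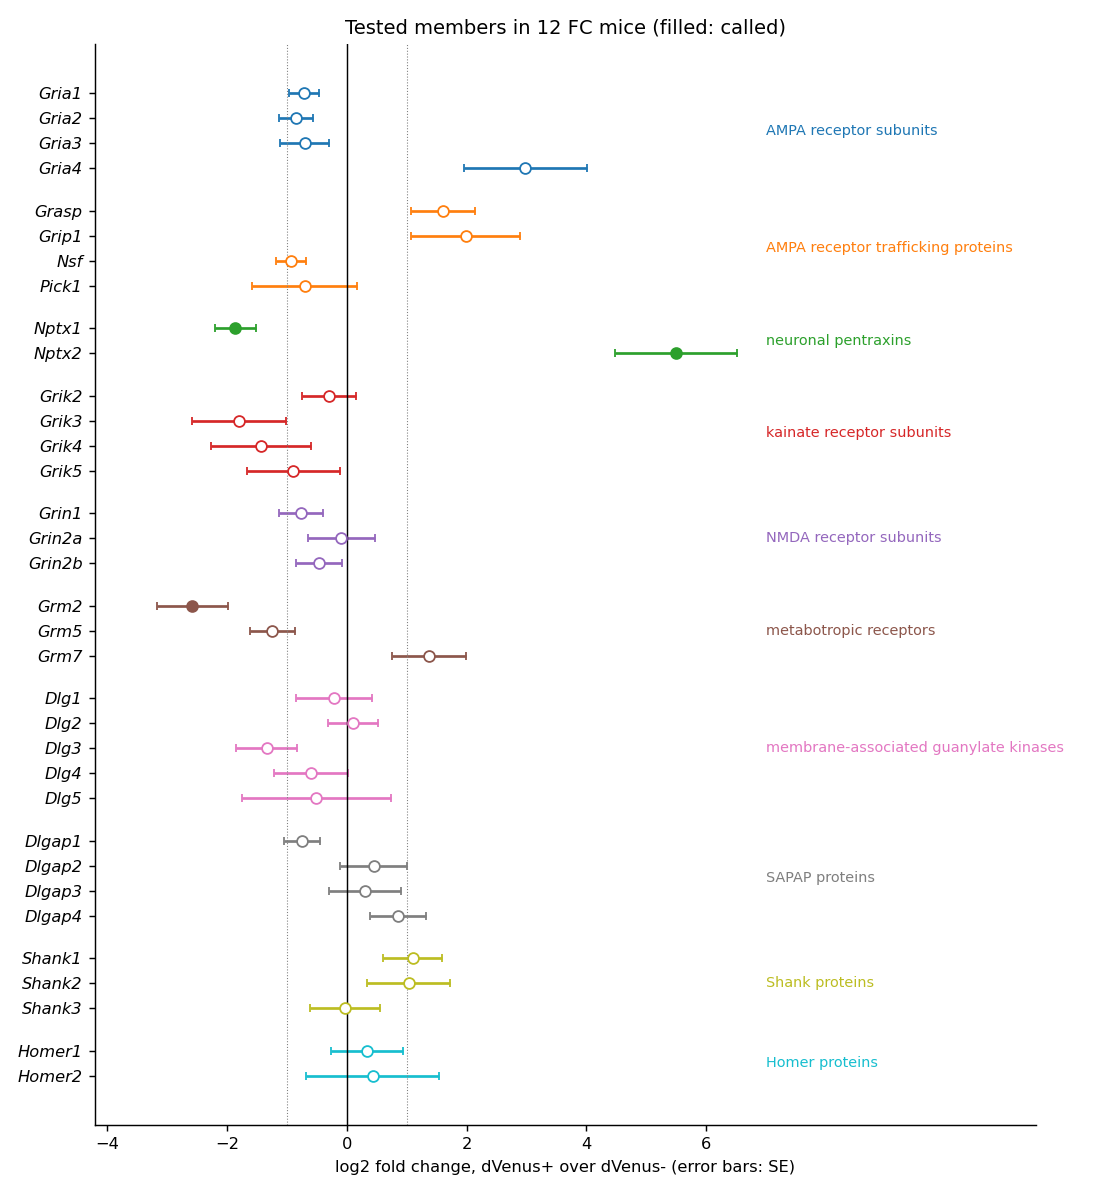
Points give the log2 fold change (x axis, dVenus+ over dVenus-) of tested members in 12 FC mice with its SE, in blocks by role; filled points are called and dotted lines mark a log2 fold change of 1 in either direction. *Nptx2* stands far to the right at 5.50, and *Grm2* at -2.58 and *Nptx1* at -1.86 are the filled points on the left.

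The pentraxins moved in opposite directions. *Nptx2* (chromosome 5, 144545887-144557478, plus strand, GRCm38) encodes a secreted pentraxin that gathers AMPA receptors. In dVenus- cells of FC mice it ran from 0 to 45.6 CPM with a median of 0.231, with no count in 5 of 12 libraries. In dVenus+ cells it ran from 4.17 to 210 CPM with a median of 55.4. The ranges overlapped, with mice 01, 06 and 14 above 10 CPM in dVenus- cells, but within mice dVenus+ cells were higher in 11 of 12. Mouse 14 was the exception, with the highest dVenus- and the lowest dVenus+ value. The log2 fold change was 5.50 ± 1.02 (SE; adjusted p = 0.00117, edgeR). *Nptx2* passed the count filter mostly through dVenus+ cells, with 10 counts in 11 of 12 dVenus+ and 4 of 12 dVenus- libraries. With no filter it was 5.48 (adjusted p = 0.00419). Within the projects of 2, 4 and 6 mice the log2 fold change was 5.04, 4.53 and 6.06, with adjusted p of 0.490, 0.424 and 0.0856 at these numbers of mice.

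*Nptx1* (chromosome 11, 119538719-119547820, minus strand) encodes a related secreted pentraxin. It ran from 298 to 1364 CPM with a median of 716 in dVenus- cells and from 39.4 to 372 CPM with a median of 223 in dVenus+ cells. The lowest dVenus- libraries reached into the range of the highest dVenus+ libraries, and within mice dVenus+ cells were lower in 11 of 12. The log2 fold change was -1.86 ± 0.34 (adjusted p = 0.00172, edgeR). It was -0.81, -2.11 and -2.11 in the projects of 2, 4 and 6 mice, and passed the test on its own in the last (adjusted p = 0.0362). Neither pentraxin shares exon sequence with another counted gene. *Nptxr*, the membrane-bound receptor of the family, had no count in 19 of 38 libraries and was not tested within any training group, and part of its exons lies in *Npcd* on the same strand.

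**Figure D3:**
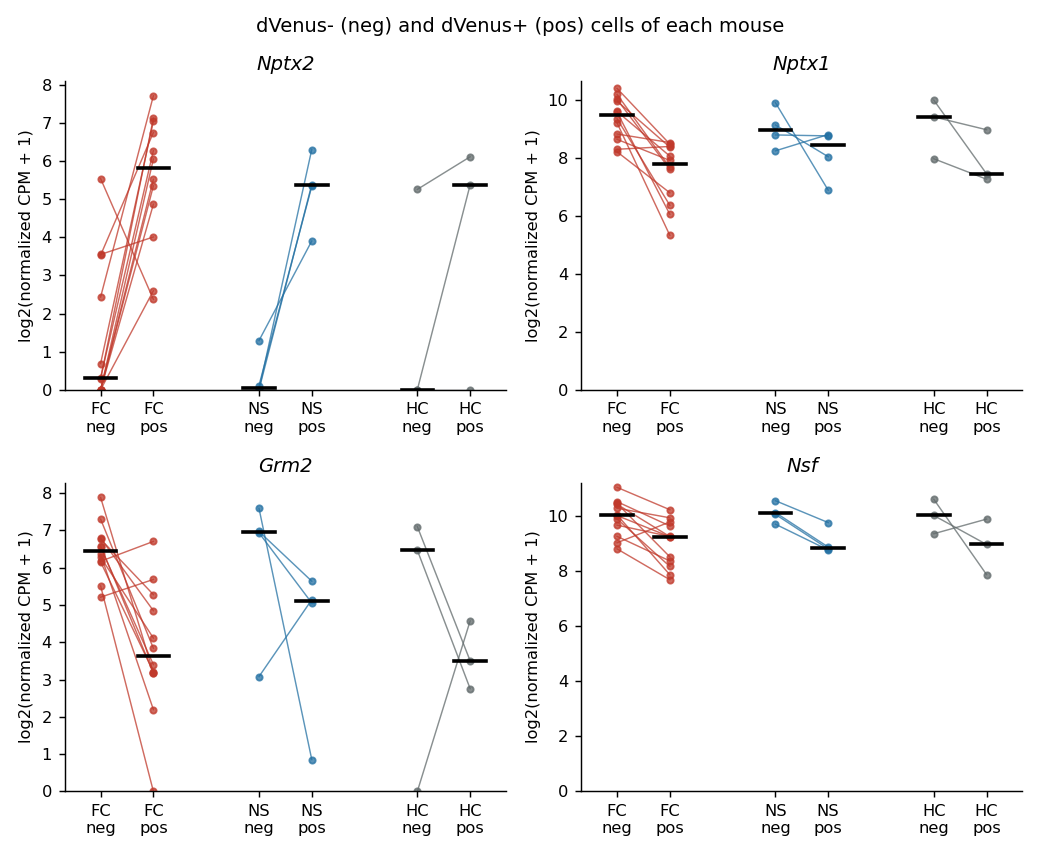
Each line joins the dVenus- (neg) and dVenus+ (pos) library of a mouse, y axis log2(normalized CPM + 1), with FC in red, NS in blue and HC in grey and black bars at the group medians. *Nptx2* is higher in dVenus+ cells of 11 of 12 FC and 4 of 4 NS mice, and *Nptx1*, *Grm2* and *Nsf* are lower in 11, 10 and 11 of 12 FC mice.

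Among metabotropic receptors, *Grm2* was called lower. *Grm2* (chromosome 9, 106644534-106656109, minus strand) encodes a receptor that lowers cyclic AMP and restrains transmitter release. In dVenus- cells of FC mice it ran from 36.0 to 235 CPM with a median of 86.8, and in dVenus+ cells from 0 to 103 CPM with a median of 11.4. Mouse 07 had the highest dVenus+ value and, with mouse 10, was higher in dVenus+ cells, while 10 of 12 mice were lower. The log2 fold change was -2.58 ± 0.60 (adjusted p = 0.0111, edgeR), and -3.19, -2.37 and -2.65 in the projects of 2, 4 and 6 mice, none of which passed on its own. With the older quasi-likelihood method of edgeR the adjusted p of *Grm2* was 0.0601, and the call was lost.

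*Grm5*, which couples to phospholipase C and binds Homer proteins, was the only tested member lower in dVenus+ cells of 12 of 12 FC mice. It ran from 123 to 424 CPM (median 185) in dVenus- and from 15.4 to 195 CPM (median 104) in dVenus+ cells, so that the ranges overlapped across mice. The log2 fold change of -1.25 ± 0.38 missed the threshold (adjusted p = 0.0551, edgeR), and passed it without mouse 04 (0.0466) and without mouse 05 (0.0481). *Grm5* was also called with DESeq2, with libraries scaled by totals, with 10 counts in all but 2 libraries, and without the mouse as block. It was not called with DESeq2's size factors in edgeR, without a count filter, with the older method, without mice 03 and 05, or within any project. *Grm7*, a presynaptic receptor that lowers cyclic AMP, ran from 0 to 172 CPM (median 66.9) in dVenus- and from 1.13 to 620 CPM (median 180) in dVenus+ cells. It was higher in 9 of 12 mice with a log2 fold change of 1.38 ± 0.62 (adjusted p = 0.235). *Grm8*, below the count filter, was higher in dVenus+ cells of 9 mice and lower in 1, at no more than 85.0 CPM.

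The study asked about genes under the transcription factor CREB, which binds the sequence TGACGTCA and, less tightly, its TGACG part. The table of RefSeq promoters used here matched 32 of the 47 members, with 49 starts in all, and windows of *Nptx1* and *Nptx2* were not analysed here. In the 250 bases before the start, TGACGTCA occurred in 0 of these 49 windows and in 1.55% of 32851 windows of all genes. TGACG on either strand (written CGTCA on the other) occurred in 6 of the 49 windows (12.2%) and in 17.8% of all. With only 49 windows both numbers lie near the shares over all genes, so neither sets the members apart. The windows of *Grm2*, as the called member with a listed start, and of *Homer1* and *Grin1*, the members with more than 1 match, are printed here from 5′ to 3′ on the strand of the gene, with TGACG and CGTCA in capitals (GRCm38.p6).
Grm2, chr9:106656110-106656359, minus strand: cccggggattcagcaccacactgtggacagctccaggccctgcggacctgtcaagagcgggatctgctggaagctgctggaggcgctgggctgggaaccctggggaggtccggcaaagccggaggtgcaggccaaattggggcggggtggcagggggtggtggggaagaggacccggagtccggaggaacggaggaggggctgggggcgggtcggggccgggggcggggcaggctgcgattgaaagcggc
Homer1, chr13:93303507-93303756, plus strand: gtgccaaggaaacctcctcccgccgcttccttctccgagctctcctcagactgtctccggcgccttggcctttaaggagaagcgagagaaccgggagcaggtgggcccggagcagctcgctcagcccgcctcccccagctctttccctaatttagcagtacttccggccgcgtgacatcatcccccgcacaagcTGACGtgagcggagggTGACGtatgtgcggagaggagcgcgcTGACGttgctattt
Grin1, chr2:25319188-25319437, minus strand: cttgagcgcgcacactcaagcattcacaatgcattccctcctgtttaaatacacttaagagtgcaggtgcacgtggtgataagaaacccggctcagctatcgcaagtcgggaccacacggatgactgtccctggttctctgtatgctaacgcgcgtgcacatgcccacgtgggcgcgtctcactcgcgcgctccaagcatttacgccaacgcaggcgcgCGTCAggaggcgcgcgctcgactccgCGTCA
The *Grm2* window held no match, that of *Homer1* 3 (its other listed start had none), beginning 56, 40 and 14 bases before the start, and that of *Grin1* 2, beginning 31 and 5 bases before it. A match describes these letters and is not a bound site.

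The AMPA receptor subunits that make up most of the family were lower in dVenus+ cells of most FC mice without passing the test. *Gria1* ran from 510 to 1340 CPM (median 824) in dVenus- and from 172 to 802 CPM (median 504) in dVenus+ cells. It was lower in 11 of 12 mice, mouse 07 being the exception, with a log2 fold change of -0.71 ± 0.25 (adjusted p = 0.110). *Gria2* ran from 537 to 1928 CPM (median 1029) in dVenus- and from 292 to 1119 CPM (median 659) in dVenus+ cells. It was lower in 10 of 12 mice with a log2 fold change of -0.85 ± 0.28 (adjusted p = 0.0771), and was called without mouse 09, the mouse with the highest dVenus+ value (-1.01, adjusted p = 0.0335). *Gria3* had a log2 fold change of -0.70 ± 0.41. With libraries scaled by their totals *Gria1* (-1.13) and *Gria2* (-1.25) were called, at a median of all genes of -0.45.

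*Gria4*, a subunit with a fast-closing channel, had the reverse order at a low level and was not called. It ran from 0 to 216 CPM (median 2.13) in dVenus- and from 0 to 113 CPM (median 38.5) in dVenus+ cells, and was higher in 9 mice, lower in 2 and without a count in either library of the last. The highest value of all 24 libraries was the dVenus- library of mouse 10. The log2 fold change was 2.98 ± 1.02 (adjusted p = 0.0965) and passed without mouse 14 (3.45, adjusted p = 0.0480).

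**Figure D4:**
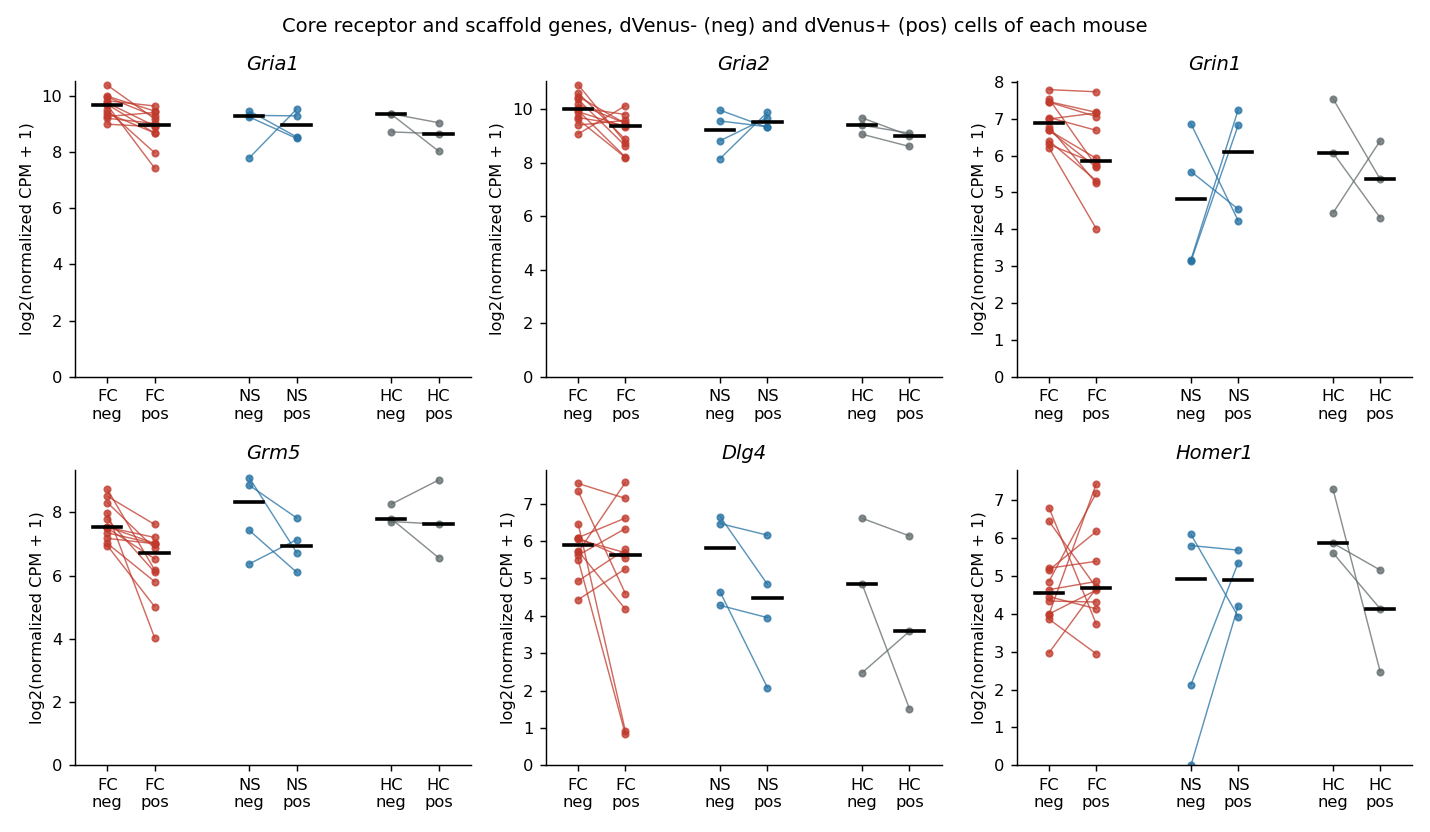
Each line joins the dVenus- (neg) and dVenus+ (pos) library of a mouse, y axis log2(normalized CPM + 1), for 6 receptor and scaffold genes, with FC in red, NS in blue, HC in grey and black bars at the group medians. *Gria1*, *Grin1* and *Grm5* slope down in 11, 11 and 12 of 12 FC mice, and *Dlg4* and *Homer1* in 7 and 5.

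Of the receptor trafficking proteins, *Nsf*, an ATPase of membrane fusion that binds the GluA2 tail, came nearest to a call. It ran from 451 to 2133 CPM (median 1055) in dVenus- and from 207 to 1213 CPM (median 614) in dVenus+ cells of FC mice, lower in 11 of 12, with mouse 12 as the exception. Its log2 fold change of -0.93 ± 0.26 had an adjusted p of 0.0339 but was under the fold threshold, which it crossed without mouse 12 (-1.08, adjusted p = 0.0142). *Grasp*, whose product tamalin ties group I metabotropic receptors to trafficking proteins, ran from 1.10 to 81.7 CPM (median 20.7) in dVenus- and from 11.7 to 260 CPM (median 61.7) in dVenus+ cells. It was higher in 11 of 12 mice, all but mouse 13 (log2 fold change 1.61 ± 0.54, adjusted p = 0.0867). *Grip1*, a PDZ scaffold for GluA2, ran from 0 to 65.0 CPM (median 0.521) and from 0 to 47.2 CPM (median 14.5), with a log2 fold change of 1.99 ± 0.91 (adjusted p = 0.246), and few of its dVenus- libraries reached 10 counts (5 of 12). *Pick1*, which draws GluA2 into the cell, had a log2 fold change of -0.70 ± 0.88.

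No kainate or NMDA receptor subunit was called. All 4 tested kainate subunits had fold changes below 0. *Grik3* ran from 1.32 to 118 CPM (median 14.8) in dVenus- and from 1.05 to 42.5 CPM (median 4.06) in dVenus+ cells, lower in 11 of 12 mice (log2 fold change -1.80 ± 0.78, adjusted p = 0.209). *Grik2* ran from 9.01 to 131 CPM (median 74.2) and from 0.703 to 232 CPM (median 66.9), with a log2 fold change of -0.30 ± 0.45 (adjusted p = 0.800). *Grin1*, the subunit that every NMDA receptor needs, ran from 73.3 to 220 CPM (median 118) in dVenus- and from 15.2 to 211 CPM (median 56.9) in dVenus+ cells. It was lower in 11 of 12 mice, with mouse 13 as the exception (log2 fold change -0.77 ± 0.37, adjusted p = 0.279). The regulatory subunits showed no shared direction across mice. *Grin2b* ran from 98.2 to 752 CPM (median 238) and from 62.0 to 500 CPM (median 203), higher in dVenus+ cells of 6 mice and lower in 6 (-0.46 ± 0.39, adjusted p = 0.588). *Grin2a* ran from 5.35 to 289 CPM (median 44.6) and from 3.48 to 122 CPM (median 67.0), and its log2 fold change of -0.09 ± 0.55 (adjusted p = 0.961) changed sign when either mouse 03 or mouse 12 was left out.

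No scaffold gene was called. *Dlg4*, which encodes PSD-95, ran from 20.6 to 185 CPM (median 58.6) in dVenus- and from 0.774 to 189 CPM (median 48.0) in dVenus+ cells of FC mice, with a log2 fold change of -0.60 ± 0.62 (adjusted p = 0.674). *Dlg3*, which encodes SAP102, ran from 27.0 to 261 CPM (median 58.3) and from 1.39 to 317 CPM (median 28.1). It was lower in 11 of 12 mice although the highest single value was a dVenus+ library (-1.34 ± 0.51, adjusted p = 0.144). *Dlgap1*, the SAPAP gene with the highest level per kb in dVenus- cells, ran from 224 to 482 CPM (median 389) and from 69.1 to 329 CPM (median 218), lower in 11 of 12 mice (-0.74 ± 0.30, adjusted p = 0.175), while *Dlgap2*, *Dlgap3* and *Dlgap4* had fold changes above 0, the largest 0.85 ± 0.47 for *Dlgap4*.

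*Shank1*, which binds SAPAP and Homer proteins, ran from 13.7 to 201 CPM (median 38.2) in dVenus- and from 28.0 to 277 CPM (median 82.8) in dVenus+ cells. It was higher in 9 of 12 mice (1.10 ± 0.49, adjusted p = 0.224), and part of its exons lies opposite *1700008O03Rik*, whose reads cannot be set apart if strand was not used in counting. *Shank2* and *Shank3* had log2 fold changes of 1.03 ± 0.69 and -0.03 ± 0.59. *Homer1*, which ties metabotropic receptors to Shank and has a short activity-dependent form that these counts per gene do not separate, ran from 6.81 to 110 CPM (median 22.3) and from 6.69 to 170 CPM (median 24.6). The cell types differed by 0.34 ± 0.60 (adjusted p = 0.837), and the sign was turned without mice 03 and 05 (-0.20), whose dVenus+ libraries had the highest *Homer1* values.

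Other genes of the same structures were read against the 4.35% of all genes called in FC mice. Of 18 genes for auxiliary subunits and assembly factors of AMPA and kainate receptors 13 were tested, and 1 was called higher (*Gsg1l*, 2.71 ± 0.78, adjusted p = 0.0424) and 1 lower (*Shisa6*, -1.82 ± 0.53, adjusted p = 0.0425). Both encode auxiliary subunits of AMPA receptors. The median log2 fold change of these 13 genes was -0.98. Of 25 other genes of the postsynaptic density 23 were tested, none was called higher and 2 were called lower, the kinase subunits *Camk2a* (-1.15 ± 0.28, adjusted p = 0.0148) and *Camk2b* (-1.72 ± 0.34, adjusted p = 0.00318). Their median was -0.48, beside -0.11 over all genes. Both lists were chosen with earlier results of these data known, so these numbers too are a description.

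In NS mice 37 members were tested and 0 were called, at 0.0489% of 8187 genes called. The quasi-likelihood test of edgeR gave 1 member with an unadjusted p under 0.05, *Nptx2*, beside 8.67% of all genes, and DESeq2 called 2 members, *Nptx2* and *Shank1*, beside 8.2% of all genes. *Nptx2* stood at 40.8, 14.0, 39.5 and 78.2 CPM in dVenus+ cells of mice 18, 19, 20 and 21, and at 0, 1.44, 0.0792 and 0 CPM in their dVenus- cells. Each dVenus+ value was above each dVenus- value, and the cell types did not overlap for 5.97% of all genes in either direction. The log2 fold change was 7.34 ± 2.36 (adjusted p = 0.396), and it rests on 9 counts in the 4 dVenus- libraries together. *Nptx2* passed the filter of 4 libraries through dVenus+ cells alone (4 of 4 against 0 of 4 libraries with 10 counts), so that it had to differ, and its unadjusted p and lack of overlap are given as a description.

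*Nptx1* in NS mice stood at 436, 265, 451 and 118 CPM in dVenus+ and at 446, 568, 305 and 970 CPM in dVenus- cells, lower in 3 of 4 mice (-0.86 ± 0.75, adjusted p = 0.755). *Grm2* stood at 0.809, 48.8, 34.3 and 32.2 CPM in dVenus+ and at 192, 125, 7.45 and 122 CPM in dVenus- cells, again lower in 3 of 4, with mouse 20 as the exception for both genes (-1.70 ± 1.44, adjusted p = 0.747). *Nsf* was lower in 4 of 4 mice, at 877, 451, 439 and 473 CPM against 1523, 1079, 842 and 1130.2 CPM (-1.07 ± 0.55, adjusted p = 0.585). The only other tested member whose values did not overlap in NS mice was *Pick1*. It had 0.404 to 1.40 CPM in dVenus+ and 1.81 to 16.8 CPM in dVenus- cells (-2.84 ± 1.47, adjusted p = 0.588). *Pick1* passed the filter through dVenus- cells alone (4 of 4 against 0 of 4 libraries), so that it too had to differ.

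In HC mice 31 members were tested and 0 were called, as were 0% of 7588 genes. With edgeR 1 member, *Homer2*, had an unadjusted p under 0.05, beside 7.01% of all genes, and DESeq2 called 3 members, *Dlgap2*, *Dlgap3* and *Homer2*, beside 8.24% of all genes. All 3 passed the count filter mainly through a single cell type, with 10 counts in fewer than 2 of 3 libraries of the other. *Nptx2* stood at 40.6, 0 and 68.4 CPM in dVenus+ cells of mice 15, 16 and 17 and at 0, 0 and 37.4 CPM in their dVenus- cells, which leaves 1 mouse without a count on either side (3.06 ± 2.82, adjusted p = 0.786). *Nptx1* stood at 175, 154 and 506 CPM in dVenus+ and at 1030.0, 252 and 689 CPM in dVenus- cells, lower in 3 of 3 mice (-1.37 ± 0.87, adjusted p = 0.736). *Grm2* stood at 5.76, 22.8 and 10.3 CPM against 87.5, 0 and 136 CPM, lower in 2 of 3 (-2.25 ± 2.44, adjusted p = 0.806).

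The tested members whose values did not overlap in HC mice were both Homer genes, where 15.1% of all tested genes did not overlap either. *Homer2* stood at 9.33, 131 and 41.6 CPM in dVenus+ and at 0.0742, 1.21 and 0 CPM in dVenus- cells, where 7 counts in all lie behind the lower side (7.23 ± 2.52, adjusted p = 0.677). It passed the filter through dVenus+ cells alone (3 of 3 against 0 of 3 libraries), so that it had to differ, and these values are a description. *Homer1* had the reverse order, with 16.5, 34.4 and 4.51 CPM in dVenus+ and 47.6, 57.0 and 155 CPM in dVenus- cells (-2.46 ± 1.69, adjusted p = 0.736).

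Whether the difference between cell types depended on training was tested in a fit of all 38 libraries, in which 44 members and 14075 genes were tested. The test passed for 0% of genes and 0 members for FC against NS, and likewise for FC against HC, while 8.18% and 9.26% of all genes and 1 and 3 members had an unadjusted p under 0.05. In FC minus NS mice the log2 difference was -1.86 ± 2.65 for *Nptx2* (adjusted p = 0.912), -1.04 ± 0.74 for *Nptx1* (0.737) and -0.88 ± 1.57 for *Grm2* (0.948), beside a median of -0.43 over all genes. In FC minus HC mice it was 2.30 ± 2.75 for *Nptx2* (adjusted p = 0.853), -0.67 ± 0.80 for *Nptx1* (0.854) and -0.50 ± 1.83 for *Grm2* (1), beside a median of -0.58. The calls of FC mice were thus not shown to differ from the values of NS and HC mice, in which fewer pairs were measured and the standard errors of all 3 genes were wider.

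**Figure D5:**
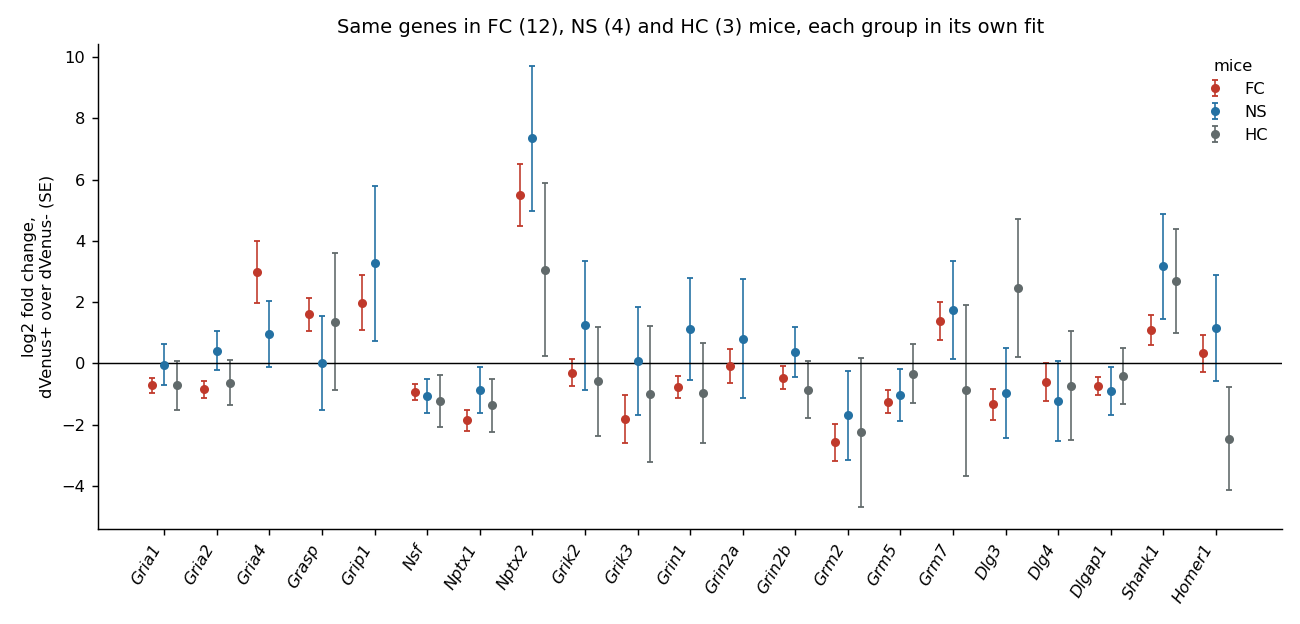
Points give the log2 fold change (y axis, dVenus+ over dVenus-) with its SE of 21 members, from separate fits of 12 FC (red), 4 NS (blue) and 3 HC (grey) mice; a missing point was below the count filter. *Nptx2* lies above 0 in all 3 groups and *Nptx1*, *Grm2* and *Nsf* below 0, with wider error bars in NS and HC than in FC mice.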

How the data were processed

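The authors pooled 10 cells per library, made cDNA by SmartSeq2 and libraries by Nextera XT, read single ends of 50 bases, aligned them to mm10 with TopHat2 2.0.13 and counted uniquely aligned reads per gene with HTSeq 0.6.0 on NCBI annotation. The deposited values are counts per gene without normalization. Whether strand was used in counting is not given in the sources used here, and the reads carry no molecular identifiers. Each library lists 23420 genes and 5 entries for other reads, which were not used. The entry for reads outside genes held 16.4% to 59.7% of unique reads. A deposited table of all libraries was not used. Totals per library ranged from 1352288 to 18394761, and counting error covers only part of the spread, with a biological coefficient of variation of 1.20 in FC and 1.42 in NS and HC mice.

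Libraries were assigned by title and characteristics; the description labels of some NS and HC libraries name another library. No pair of libraries held identical counts. Each training group was fitted alone with edgeR 4.0.16 in R 4.3.3 (TMM, estimateDisp, glmQLFit with its current method, glmQLFTest, two-sided), blocking on the mouse. Genes needed 10 or more counts in 12 (FC), 4 (NS) or 3 (HC) libraries. The current method of glmQLFit was set, as in an earlier analysis of these data, in place of the version's older default, whose effect is given under the alternatives. A gene was called at a Benjamini-Hochberg adjusted p under 0.05 and an absolute log2 fold change over 1. Interactions were fitted over all 38 libraries, for genes with 10 or more counts in 3 or more of them. The study itself used DESeq2 in a paired design, here (DESeq2 1.42.0) an alternative. Normalized CPM use TMM factors over all libraries. Exon lengths are the union of all exons listed for a gene in GENCODE vM21, while the counts were made on NCBI annotation. Scripts were tested on simulated data. The 2 libraries of a mouse come from 1 animal. Their deviations from the group means correlated with a median of 0.0361 in FC (2 of 12 pairs over 0.1), -0.0121 in NS and 0.0204 in HC mice (0 pairs over 0.1 in either), and the block was kept because the animal is shared.

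Members and gene lists were chosen with earlier results of these data known. Full values are given for members called in any group or at an unadjusted p under 0.05 in FC, and for 12 core genes whatever their values. *Grm8* in FC mice and *Homer2* and *Pick1* in NS and HC mice were named after their values were seen, and other members with a fold change alone stand beside their family. Some genes are not reported here. The other marker lists (interneuron, mossy cell, astrocyte, oligodendrocyte, its precursor, endothelium) had FC medians of 139, 1.63, 159, 546, 0.0307 and 0 CPM in dVenus- and 55.4, 5.52, 199, 497, 0.212 and 0 CPM in dVenus+ libraries. In this order they were higher in dVenus+ cells of 3, 8, 4, 4, 7 and 2 of 12 FC mice. The numbers were 1, 2, 3, 2, 3 and 3 of 4 NS mice and 2, 3, 2, 1, 3 and 2 of 3 HC mice. Alternatives were other size factors, count filters and tests, a fit without the block, and fits without each mouse or within each project.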

Additional observations from a re-analysis of the deposited data

Results flagged for a closer look

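In the 4 NS mice, 1 library stood apart from the other 3 of its cell type by Dixon's criterion (gap over range above 0.829) for 4 of 21 members. These were examined in 42 groups of libraries. Chance alone flags about 1 in 20 groups if values are normally distributed. The CPM were not transformed and in part lay near 0, so that rate need not hold here. *Grip1* in dVenus+ cells of mouse 20 had 84.3 CPM. *Nptx2* in dVenus- cells of mouse 19 had 1.44 CPM, the highest of 4 values near 0. *Nsf* in dVenus+ cells of mouse 18 had 877 CPM. *Shank1* in dVenus- cells of mouse 19 had 76.7 CPM, against 0, 0 and 11.2 CPM in mice 18, 20 and 21.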

How the results depend on the processing

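In FC mice *Nptx2*, *Nptx1* and *Grm2* were called in 12 of 12 fits that each left out 1 mouse, with *Nptx2* between 5.18 and 6.22, *Nptx1* between -2.04 and -1.70 and *Grm2* between -2.87 and -2.33. These fits called 297 to 402 genes and 3 to 4 members. Of all genes, 422 were called in the fit reported and 230 with 10 counts in all but 2 libraries (where *Nptx2* was not tested). DESeq2 called 1651 and the older quasi-likelihood method (chosen after seeing the data) 137. Without mice 03 and 05 the number was 266, and in the projects of 2, 4 and 6 mice it was 0, 10 and 13. Mice 03 and 05 were left out for low depth. The dVenus+ library of mouse 09 and the dVenus- library of mouse 12 (3554946 counts) were shallower than the dVenus+ library of mouse 05, and both were kept in that fit. Of members, 3 were called in the fit reported (4.35% of all genes), 6 with libraries scaled by totals (4.19% of all genes), 10 with DESeq2 (17% of all genes), and 0, 0 and 1 (*Nptx1*) in the 3 projects. *Grm2* lost the call with the older method (adjusted p = 0.0601). Without the replicate block 487 genes (5.02%) and 4 members were called in FC mice, *Grm5* being added.

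In NS mice 4 genes were called in the fit reported, 11 with DESeq2's size factors, 0 with totals, 1 without a filter, 0 with the stricter filter, 671 with DESeq2, 13 without the replicate block, 0 with the older method and 0 to 2 without 1 mouse. DESeq2 called 2 members in NS and 3 in HC mice, where it called 625 genes and the older method 2. Without the replicate block the interaction passed for 14 genes against NS and 8 against HC mice, with 0 members in either. With the block it passed for 0 genes in 7 of 7 fits that left out 1 NS or HC mouse (chosen after seeing the data).

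Signs of members that were not called turned in these fits. *Dlg4* was 0.72 and *Grm7* -0.051 in the project of 2 mice, *Grin2b* 0.38 and *Grin2a* 0.071 in that of 4, and *Grin2a* 0.31 and *Homer1* -0.37 in that of 6. *Grik2* was 0.0091 without the replicate block, *Homer1* -0.036 with totals, and *Grin2a* 0.20 and *Homer1* -0.20 without mice 03 and 05. Leaving out mouse 03 or 12 gave *Grin2a* 0.14 and 0.18, in a range from -0.38 to 0.18 over the mice. For the interactions, *Grm2* was 0.62 against HC without the block. Leaving out 1 NS or HC mouse gave *Grm2* -2.25 to 1.21 against HC (highest without mouse 16) and -2.06 to 0.34 against NS (highest without mouse 20), and *Nptx2* -5.62 to 4.56 against HC (lowest without mouse 17). The cause of these shifts was not tested. Depth limits the lower members: 10 of 47 had no count in at least 19 of 38 libraries.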
